A study of Mus musculus with 6 samples.

Results

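The genes described here are 10 members of the epidermal growth factor (EGF) signalling family: the ligand genes Hbegf, Nrg4, Nrg1, Tgfa, Btc and Ereg, and the receptor genes Egfr, Erbb2, Erbb3 and Erbb4. They were looked up by gene symbol among 16627 genes with deposited read counts, and 8 of the 10 were found. Nrg1 and Ereg are not analysed here. The family was chosen by the measured differences of Hbegf and Nrg4, which lay in opposite directions between the same 2 groups of libraries, so the values of that contrast are a description and not evidence. All libraries came from inguinal white adipose tissue (iWAT), the subcutaneous fat depot of the groin, of mice kept in the cold at 4 °C for 6 hours. The group called Celf1 AKO (3 libraries) carried an adipocyte-specific knockout of Celf1, and the group called Flox control (3 libraries) was made up of littermate controls with floxed Celf1 (Celf1 fl/fl). Libraries are numbered by their replicate number within each group, as knockout and control libraries. The knockout mice carry the floxed gene as well, and all 6 libraries shared the cold exposure. The labels do not name the promoter behind the deletion, nor the age or sex of the mice, and whole tissue also holds cells other than adipocytes. The labels do not state that every library is a separate mouse, and the p-values cover only how far these libraries vary.

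EGF-family ligands are made as membrane-anchored precursors that are cut free by metalloproteases and then bind receptors of the ErbB family on the same or on neighbouring cells. Egfr binds Tgfa, Btc and Hbegf, Erbb4 binds the neuregulins as well as Btc and Hbegf, Erbb3 binds neuregulins but has little kinase activity of its own, and Erbb2 has no known ligand and serves as the partner of the other receptors. Receptor pairs signal through the RAS-MAPK and PI3K pathways. In fat, Nrg4 is known as a factor secreted by brown and beige adipocytes that acts on liver and nerve.

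The promoter of Nrg4 is shown because this gene was the most abundant member per unit of transcript length and was lower in the knockout libraries. RefSeq promoter windows (GRCm38.p6) matched 6 of the 10 members: Nrg4, Tgfa, Btc, Egfr, Erbb2 and Erbb4. The 250 bases before the RefSeq start of Nrg4 lie on the minus strand at chr9:55283626-55283875, inside the wider span that GENCODE gives the gene. Capitals mark matches to AGGTCA, the half-site bound by nuclear receptors such as PPAR gamma, which was searched on both strands.

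Nrg4: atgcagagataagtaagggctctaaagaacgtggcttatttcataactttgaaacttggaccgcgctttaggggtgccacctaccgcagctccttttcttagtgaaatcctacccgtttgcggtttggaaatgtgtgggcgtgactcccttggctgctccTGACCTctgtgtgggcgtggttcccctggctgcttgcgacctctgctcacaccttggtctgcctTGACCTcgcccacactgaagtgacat

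The Nrg4 window held 2 matches, both on the opposite strand, and they do not overlap. Among 32851 windows of this length, 14.0% held at least 1 match and 1.36% held at least 2. The windows of the other 5 members held 0 matches. A match is a run of letters and not a measured binding site.

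Library totals ran from 54835348 to 64979443 counts. Celf1, the targeted gene, was measured at 52.5, 49.8 and 63.0 CPM (counts scaled to library size with TMM factors) in knockout libraries 1, 2 and 3, against 126, 114 and 144 CPM in control libraries 1, 2 and 3, so the groups did not overlap and the knockout mean was 43.1% of the control mean. The adipocyte markers Fabp4 and Cfd were at 13252 CPM or more and at 9886 CPM or more in every library. The libraries were therefore rich in adipocyte RNA, beside RNA of the vessels, nerves and immune cells of the depot.

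Per unit of transcript length, Nrg4 was the most abundant member and Erbb4 the least abundant. FPKM are fragments scaled to transcript length and library size, as deposited by the authors. In Flox control the mean levels in FPKM were 61.9 ± 7.76 for Nrg4, 10.6 ± 0.81 for Egfr, 2.65 ± 1.39 for Btc and 1.65 ± 0.36 for Erbb2. Below these were 0.85 ± 0.16 for Hbegf, 0.67 ± 0.055 for Erbb3, 0.38 ± 0.032 for Tgfa and 0.14 ± 0.056 for Erbb4 (SD, n = 3 for all). In that order, the ranges over libraries overlapped between the neighbours Btc and Erbb2 and between Hbegf and Erbb3, and no others overlapped. In Celf1 AKO the order was the same except that Hbegf, at 3.14 ± 0.082 FPKM (SD, n = 3), stood above Erbb2, at 1.40 ± 0.35 FPKM. There the ranges of Btc and Hbegf, Erbb2 and Erbb3, Erbb3 and Tgfa, and Tgfa and Erbb4 overlapped.

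**Figure D1:**
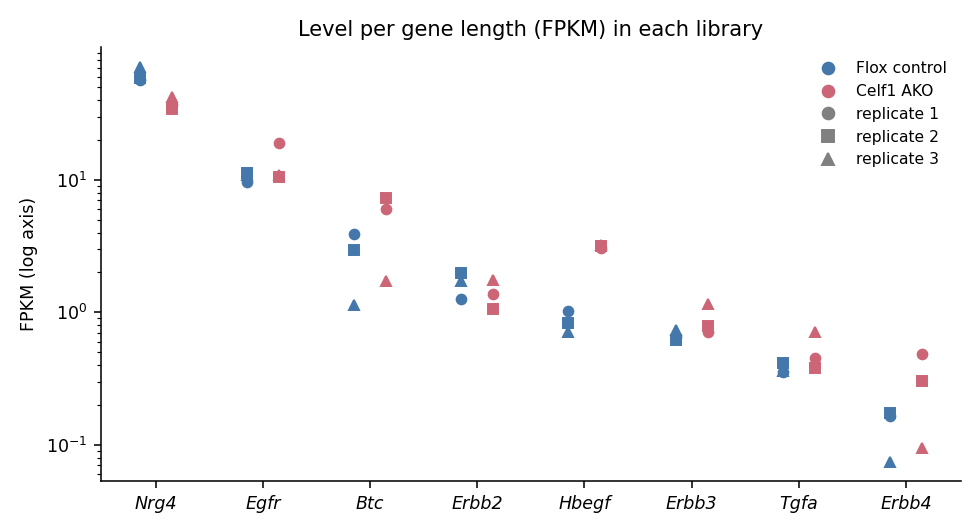
Level of each measured member in FPKM (log axis) in each library, ordered by the Flox control mean, with colour for the group and symbol for the replicate number. Nrg4 lies highest in all libraries, and Hbegf moves from about the level of Erbb3 in Flox control to above Erbb2 in Celf1 AKO.

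Among the receptors, Egfr thus dominated: its FPKM was 34.4 to 146 times that of Erbb4 in the 6 libraries. Erbb4, the receptor through which Nrg4 acts, ranked last among the members on this scale, where Nrg4 ranked first. The level of Nrg4 was 5.22 to 6.50 times that of Egfr in the controls and 1.94 to 3.87 times in Celf1 AKO, on the FPKM scale.

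Hbegf, which encodes heparin-binding EGF-like growth factor, a ligand of Egfr and Erbb4, was higher in every Celf1 AKO library. Its CPM was 7.23, 7.97 and 7.31 in knockout libraries 1, 2 and 3, against 2.59, 1.90 and 1.62 in control libraries 1, 2 and 3. The 3 knockout libraries lay close together, and the lowest of them was well above the highest control. These values rest on 397, 487 and 476 counts against 151, 129 and 106. The means were 7.50 ± 0.41 and 2.04 ± 0.50 CPM (SD, n = 3 each), a ratio of 3.68, and the fitted log2 fold change was 1.88 (SE 0.24). Without any 1 library, the log2 fold change of Hbegf stayed between 1.74 and 2.09. The gene (ENSMUSG00000024486) spans chromosome 18, 36504927 to 36515805, on the minus strand of GRCm38.

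Nrg4, the secreted ligand of thermogenic fat, was lower in every Celf1 AKO library. It was measured at 76.7, 76.2 and 85.3 CPM in knockout libraries 1, 2 and 3, against 127, 117 and 144 CPM in control libraries 1, 2 and 3. Again the groups did not overlap, and replicate 3 was the highest library of either group. The knockout mean was 61.4% of the control mean (79.4 ± 5.09 against 129 ± 13.5 CPM, SD, n = 3 each), with a log2 fold change of -0.70 (SE 0.12), which ran from -0.77 to -0.62 with any 1 library left out. In whole tissue, fewer cells that make a transcript and less transcript per cell cannot be told apart. Nrg4 (ENSMUSG00000032311; chromosome 9, 55220222 to 55326844, minus strand) overlaps Fbxo22, an F-box protein gene on the opposite strand. Fbxo22 was at 39.8 to 46.1 CPM in the 6 libraries with a log2 fold change of -0.09 (SE 0.097).

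Set side by side in each library, the level of Hbegf was 8.32%, 9.24% and 7.57% of that of Nrg4 in knockout libraries 1, 2 and 3, against 1.80%, 1.44% and 0.996% in control libraries 1, 2 and 3, on the FPKM scale. The proportion was thus several-fold higher in each knockout library than in each control, with Nrg4 the more abundant transcript throughout.

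**Figure D2:**
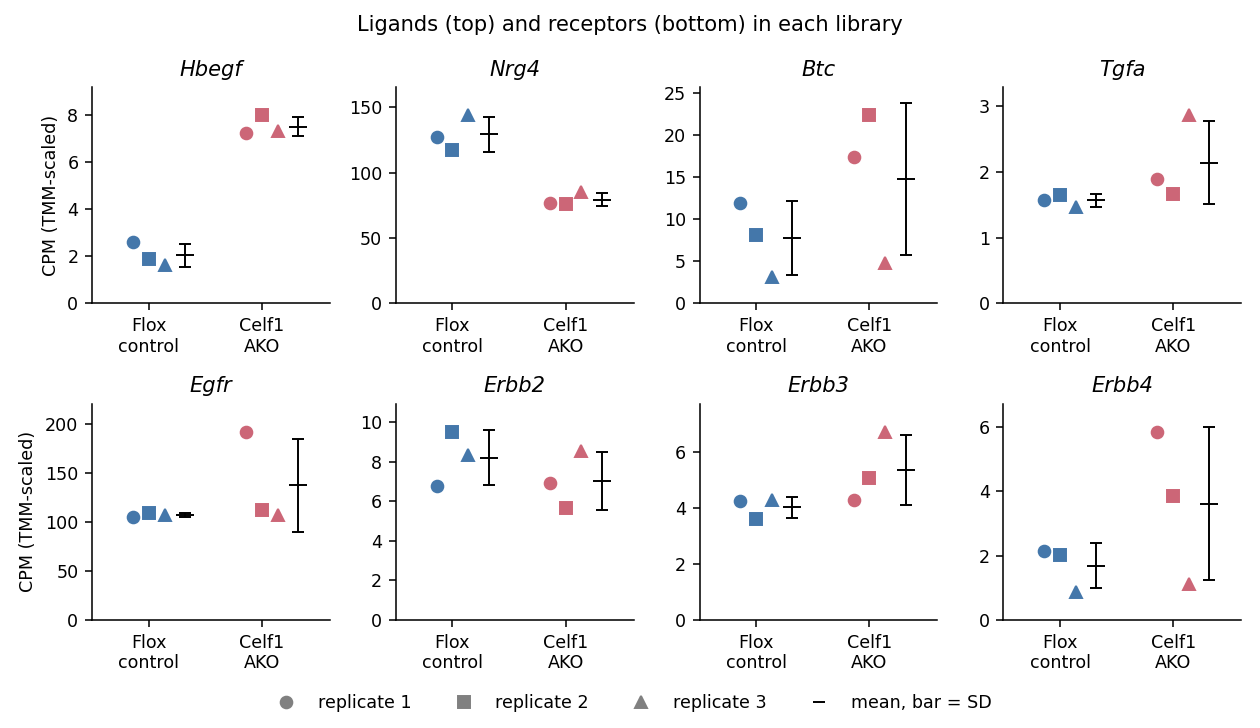
CPM of the 4 measured ligands (top row) and the 4 receptors (bottom row) in each library, with the mean and SD of each group beside the points and every axis starting at 0. Hbegf and Nrg4 show tight, separated groups, whereas Btc and Erbb4 spread widely within both groups and Egfr is high in 1 library, Celf1 AKO replicate 1.

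Btc encodes betacellulin, a ligand of Egfr and Erbb4. Its CPM was 17.3, 22.3 and 4.78 in knockout libraries 1, 2 and 3, against 11.9, 8.15 and 3.17 in control libraries 1, 2 and 3. Replicate 3 was the lowest library of each group, and Celf1 AKO replicate 3 lay below the first pair of controls, so the groups overlapped. The log2 fold change of 0.93 (SE 0.62) was 0.51 when knockout library 2 was left out and 1.38 when control library 1 was. Btc (ENSMUSG00000082361) lies on chromosome 5, 91357261 to 91402994, minus strand.

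Tgfa, which encodes transforming growth factor alpha, a ligand of Egfr, was near the lower end of what was measured. Its CPM was 1.89, 1.67 and 2.86 in knockout libraries 1, 2 and 3, against 1.58, 1.65 and 1.47 in control libraries 1, 2 and 3. The groups were separated only by the gap between 1.67 and 1.65 CPM, and they overlapped on the FPKM scale. Celf1 AKO replicate 3 was the highest library. The log2 fold change of 0.45 (SE 0.28) was 0.18 without that library. Tgfa (ENSMUSG00000029999) lies on chromosome 6, 86195223 to 86275719, plus strand. Celf1 AKO replicate 3 also stood apart in the summed CPM of 5 neutrophil markers, at 108 against 15.6 and 24.9 in the other 2 knockout libraries. It did so too in the muscle actin gene Acta1, at 1039 CPM against 23.1 to 75.2 CPM in the other 5 libraries. Of the 5 skeletal muscle markers listed, only Acta1 is analysed here, so muscle rests on 1 gene. The part of neutrophils or muscle in the level of Tgfa was not tested.

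Of the 5 other EGF-family ligand genes looked up, Egf and Nrg2 were measured, and Areg, Epgn and Nrg3 are not analysed here. Egf, the founding ligand of Egfr, was at 2.09, 3.55 and 2.94 CPM in knockout libraries 1, 2 and 3, against 1.65, 2.24 and 1.47 CPM in control libraries 1, 2 and 3, with a log2 fold change of 0.68 (SE 0.30) and an edgeR adjusted p of 0.391. Nrg2, a neuregulin, was at 0.73 CPM or less in all 6 libraries, with a log2 fold change of 0.50 (SE 0.48) and an edgeR adjusted p of 0.686. Both had overlapping groups and neither passed the test.

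Egfr, the most abundant of the receptors, was high in 1 library. It was at 192, 113 and 107 CPM in knockout libraries 1, 2 and 3, against 105, 109 and 108 CPM in control libraries 1, 2 and 3. That was Celf1 AKO replicate 1, and the other 5 libraries lay within a narrow band. The log2 fold change of 0.36 (SE 0.22) was 0.07 without Celf1 AKO replicate 1. In the same library the summed CPM of 7 epithelial markers was 22.1, against 1.12 to 5.004 in the other 5 libraries. Of these markers, Krt5, Krt14, Epcam and Ltf were each at 0 counts in at least 1 library. In Celf1 AKO replicate 1, Ltf and Krt19 were at 7.97 and 5.95 CPM, and Krt5 and Krt14 at 0.82 and 0.78 CPM. The summed CPM of 7 progenitor and fibroblast markers was 3033 in that library and 1832 to 2885 in the others, and that of 6 macrophage markers 1242 against 417 to 1100. The part of these cells in the level of Egfr was not tested. Egfr (ENSMUSG00000020122) lies on chromosome 11, 16752203 to 16918158, plus strand.

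Erbb2, the partner receptor without a ligand, was at 6.92, 5.63 and 8.51 CPM in knockout libraries 1, 2 and 3, against 6.76, 9.51 and 8.36 CPM in control libraries 1, 2 and 3. The groups overlapped over most of their range, and the log2 fold change was -0.23 (SE 0.22). Erbb2 (ENSMUSG00000062312; chromosome 11, 98412470 to 98437716, plus strand) overlaps Mien1, a gene on the opposite strand, which had a log2 fold change of 0.11 (SE 0.23).

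Erbb3, a neuregulin receptor of Schwann cells and epithelia, was at 4.26, 5.04 and 6.70 CPM in knockout libraries 1, 2 and 3, against 4.22, 3.59 and 4.25 CPM in control libraries 1, 2 and 3. The lowest knockout library and the highest control were nearly equal, and on the FPKM scale the groups overlapped. The log2 fold change was 0.41 (SE 0.23), and it was 0.21 without Celf1 AKO replicate 3. The summed CPM of 9 Schwann cell markers was 558 to 809 in Celf1 AKO and 353 to 436 in Flox control, led by the myelin genes Pmp22 and Mbp, and 8 of the 9 markers were higher without overlap between the groups, as were 7.81% of all genes. Mbp, which encodes myelin basic protein, was at 115, 191 and 214 CPM in knockout libraries 1, 2 and 3, against 112, 98.8 and 104 CPM in the 3 controls. The part of nerve tissue in the level of Erbb3 was not tested. Erbb3 (ENSMUSG00000018166) lies on chromosome 10, 128567523 to 128589652, minus strand.

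Erbb4, the receptor for Nrg4 and Btc, was at 5.84, 3.86 and 1.11 CPM in knockout libraries 1, 2 and 3, against 2.14, 2.02 and 0.87 CPM in control libraries 1, 2 and 3. Replicate 3 was the lowest library of each group, as for Btc, and the groups overlapped through Celf1 AKO replicate 3. The lowest value rested on 57 counts. The log2 fold change of 1.10 (SE 0.60) was 0.60 when knockout library 1 was left out and 1.53 when knockout library 3 was. Erbb4 (ENSMUSG00000062209) lies on chromosome 1, 68032186 to 69108059, minus strand.

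**Figure D3:**
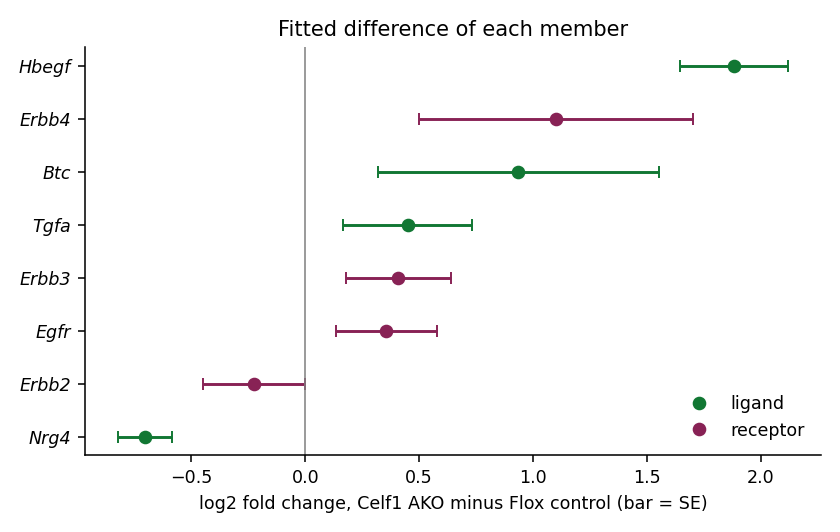
Fitted log2 fold change of each member, Celf1 AKO minus Flox control, with its standard error as the bar and colour for ligands and receptors. Hbegf at 1.88 and Nrg4 at -0.70 lie at the ends of the order, and the bars of Btc and Erbb4 are the longest.

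With all genes fitted together, 0 of the 8 members passed the quasi-likelihood test of edgeR at an adjusted p of 0.05, where 0.0122% of the 16366 tested genes passed. At an unadjusted p under 0.05 there were 2 members, Hbegf and Nrg4, where 12.9% of all genes lay under that value. DESeq2, where 2.97% of all genes passed, called the same 2 members, and so did edgeR without Celf1 AKO replicate 3, where 3.19% passed. With any other single library left out, edgeR called 0 members. Of the 8 members, 3 (Hbegf, Tgfa and Erbb3) were higher in every knockout library than in every control, as were 7.81% of all genes, and 1 (Nrg4) was lower in every one, as were 9.51%. Because this contrast chose the family, nothing is read from these counts. The median log2 fold change of the 8 members was 0.43, and that of all tested genes was -0.02.

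Btc and Erbb4, a ligand and a receptor for it, had similar profiles over the libraries, although Btc was highest in Celf1 AKO replicate 2 and Erbb4 in Celf1 AKO replicate 1. Their log2(CPM + 0.5) correlated at a Pearson r of 0.93 and a Spearman rho of 0.94 over the 6 libraries, the highest positive r among the 28 pairs of members. These points share libraries and the 2 groups, so the value is a description. Errfi1, a feedback inhibitor that binds active Egfr and stops its kinase, followed a similar order. It was at 700, 1148 and 280 CPM in knockout libraries 1, 2 and 3, against 434, 191 and 257 CPM in control libraries 1, 2 and 3. Jun, an immediate early transcription factor gene, was likewise high in Celf1 AKO replicates 1 and 2, at 285 and 300.4 CPM, and lower in Celf1 AKO replicate 3, at 88.3 CPM, next to 86.9, 51.0 and 40.5 CPM in control libraries 1, 2 and 3. Hbegf did not share this pattern, since Celf1 AKO replicate 3 stood with the other knockout libraries.

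**Figure D4:**
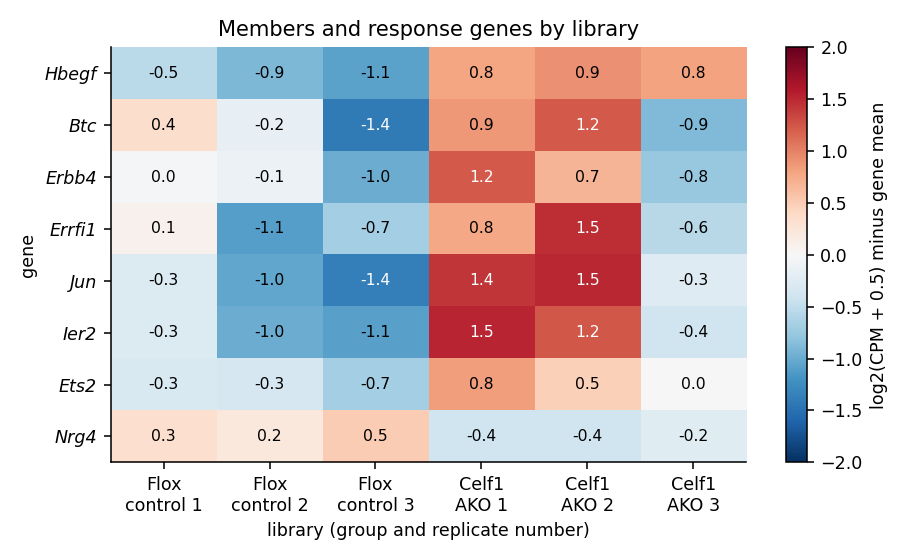
Deviation of log2(CPM + 0.5) from each gene's mean over the 6 libraries, for Hbegf, Btc, Erbb4, Nrg4 and 4 genes of the pathway lists, with red above and blue below the mean. In Celf1 AKO replicate 3, Hbegf is 0.80 above its mean, whereas Btc is at -0.88 and Erbb4 at -0.76.

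The genes most like Hbegf and Nrg4 were sought among 13082 tested genes with a mean of at least 1 CPM, by Pearson r of log2(CPM + 0.5) over the 6 libraries. The gene most like Nrg4 was Celf1 itself (r = 0.996), followed by Lurap1 (0.992), Rmnd1 (0.991) and Slmap (0.990). Celf1 and Nrg4 were both highest in Flox control replicate 3 and, within the knockout group, in replicate 3. Most like Hbegf were Usp36 (0.992), Pdlim7 (0.989), Shisa3 (0.988) and Atp10d (0.986). Values above 0.95 were reached by 111 genes for Nrg4 and by 81 for Hbegf, and any gene whose groups are far apart scores high on so few libraries. Of these 8 genes, none passed the edgeR test: their adjusted p-values ran from 0.122 for Celf1 to 0.323 for Slmap. All 8 lay at an unadjusted p under 0.05, as did 12.9% of all genes. They were picked by likeness to Hbegf and Nrg4, whose groups are apart, so nothing is read from this. The log2 fold change was 0.73 (SE 0.12) for Pdlim7 and -1.04 (SE 0.21) for Lurap1.

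Celf1 protein is known to bind GU-rich elements in the 3′ untranslated regions (UTRs) of mRNAs and to speed their decay. The UTRs of the 8 members were therefore searched for a form of this element that consists of 2 copies of TGTTTGT sharing 3 bases, on the transcript strand of the GENCODE M21 transcript with the longest 3′ UTR of each gene. Hbegf held it and the other 7 members did not. It was present in 4.19% of 13970 tested genes with a 3′ UTR and in 2.94% of the 2314 genes whose UTR was of similar length to that of Hbegf, which has 1456 bases. For the longer UTRs of Egfr and Erbb4, with 6303 and 7855 bases, the share among genes of similar length was 18.5% and 23.5%. Over all 586 tested genes with the element, the median log2 fold change was 0.00060 and 294 (50.2%) were positive. In the 13384 genes without it, the median was -0.02 and 47.6% were positive. A match is a description of letters, and no binding was measured.

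The other genes of the pathway were taken from 5 lists ordered by role, and 90 of their 94 genes were tested. By edgeR, 0 of the 90 passed an adjusted p of 0.05, and 19 higher and 7 lower genes lay at an unadjusted p under 0.05, where 6.75% and 6.17% of all genes did. DESeq2 called 10 of them, all higher in Celf1 AKO, where 2.97% of all genes passed. By edgeR without Celf1 AKO replicate 3, 9 were called, all higher, where 3.19% of all genes passed. With any other single library left out, edgeR called 0 of the 90. With DESeq2, and with edgeR without Celf1 AKO replicate 3, 7 of the called genes belonged to the list of response genes.

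Genes that cut ligands free or hold them at the cell surface showed no common direction: 8 of 14 had positive log2 fold changes, with a median of 0.03. Those of smallest p were Timp3, an inhibitor of ligand-cutting metalloproteases, Rhbdf2, which brings the protease Adam17 to the surface, and Adam12, a protease that can cut Hbegf. Timp3 was at 370.1, 356 and 377 CPM in knockout libraries 1, 2 and 3, against 242, 229.8 and 189 CPM in control libraries 1, 2 and 3, so that the groups lay far apart (log2 fold change 0.74, SE 0.13, edgeR adjusted p = 0.223). Rhbdf2 was at 16.9 ± 0.60 against 11.6 ± 1.81 CPM and Adam12 at 69.2 ± 7.31 against 93.9 ± 14.4 CPM (SD, n = 3 each). By edgeR the adjusted p was 0.285 for Rhbdf2 and 0.305 for Adam12. DESeq2 on all 6 libraries called 2 genes of this list, Timp3 and Rhbdf2, where 2.97% of all genes passed. With knockout library 3 left out, edgeR called 1, Timp3, where 3.19% passed. Of the 14 genes, 2 were higher and 1 lower at an unadjusted p under 0.05 by edgeR. Of all genes, 6.75% and 6.17% were. Without overlap, 2 of the 14 were higher and 2 lower, as were 7.81% and 9.51% of all genes.

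The genes of the relay from receptor to nucleus lay in both directions. Of 34 adaptor, RAS-MAPK and PI3K genes, 14 were positive and 20 negative, with a median of -0.09. At an unadjusted p under 0.05 there were 2 higher and 5 lower genes, where 6.75% and 6.17% of all genes were. Without overlap, 3 were higher and 3 lower, as were 7.81% and 9.51% of all genes. DESeq2 called 0 of the 34, and so did edgeR without Celf1 AKO replicate 3. Smallest in p were Stat5a, a transcription factor activated by receptor kinases (26.0 ± 4.70 against 45.1 ± 11.1 CPM, log2 fold change -0.80, SE 0.22), Sos1, which loads RAS with GTP (-0.41, SE 0.13), and Gab2, a docking adaptor (0.43, SE 0.13). Their edgeR adjusted p-values were 0.267 for Stat5a and 0.301 for the other 2. All 3 had groups that did not overlap, as did 17.3% of all genes. These genes were picked by smallest p on the same contrast, so nothing is read from this. Stat3, named after its values were seen, is a transcription factor like Stat5a and lay the other way, at 338, 305 and 228 CPM in knockout libraries 1, 2 and 3, against 224, 177 and 130.4 CPM in the controls (log2 fold change 0.71, SE 0.23, edgeR adjusted p = 0.302). Pik3r1, a PI3K subunit named for the same reason, had a log2 fold change of -0.67 (SE 0.21, edgeR adjusted p = 0.301), with groups that overlapped.

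Among 19 negative regulators of ErbB receptors, 9 were positive and 10 negative, with a median of -0.06. At an unadjusted p under 0.05 by edgeR, 4 were higher and 0 lower, where 6.75% and 6.17% of all genes were. Without overlap, 2 were higher and 2 lower, as were 7.81% and 9.51% of all genes. Ptprk, a phosphatase that acts on Egfr, averaged 7.19 ± 0.64 CPM with the knockout and 4.14 ± 0.58 CPM without it (SD, n = 3 each), and no knockout library overlapped a control (log2 fold change 0.80, SE 0.20, edgeR adjusted p = 0.251). Ptpn2, another phosphatase of the pathway, and Errfi1 had log2 fold changes of 0.60 (SE 0.21) and 1.27 (SE 0.50), with edgeR adjusted p-values of 0.323 and 0.359, and both overlapped between the groups through Celf1 AKO replicate 3. DESeq2 called 1 gene of this list, Ptprk, and edgeR with knockout library 3 left out called 1, the feedback inhibitor Socs3. Of all genes, these fits called 2.97% and 3.19%.

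Genes that respond to Egfr signalling, many of which also respond to other stimuli, lay mostly above 0. Of 21 tested, 18 had positive log2 fold changes and the median was 0.93, against -0.02 for all genes, and 1.11 without Celf1 AKO replicate 3. Smallest in p were Ets2 (log2 fold change 0.92, SE 0.22), Jun (1.92, SE 0.48) and Ier2 (1.76, SE 0.47), with edgeR adjusted p-values of 0.251, 0.252 and 0.262. DESeq2 called 7 of the 21, and edgeR with knockout library 3 left out also called 7, where 2.97% and 3.19% of all genes passed. The 2 sets differed: Egr2, Maff and Spry4 were in the first alone, and Egr1, Junb and Fos in the second alone. Of the 21, 4 were higher in every knockout library than in every control, as were 7.81% of all genes. In the other direction, 1 was lower in every one, as were 9.51%. For Ier2, Egr1 and Fos, which are immediate early genes, knockout libraries 1 and 2 were high and library 3 lay among the controls. Ier2 was at 89.6, 73.5 and 23.2 CPM in these libraries, against 25.4, 15.4 and 14.3 CPM in control libraries 1, 2 and 3. Egr1, named after its values were seen, was at 375, 302 and 14.8 CPM, against 43.1, 10.7 and 7.71 CPM, and Fos, named likewise, at 109, 84.3 and 10.9 CPM, against 30.6, 20.0 and 10.2 CPM. Leaving out knockout library 3 therefore sets the groups of Ier2, Egr1 and Fos further apart. The calls of that fit are not separate support. At an unadjusted p under 0.05 by edgeR, 11 of the 21 were higher and 1 was lower, where 6.75% and 6.17% of all genes were. The lower gene was Ptgs2, named after its values were seen. It encodes the prostaglandin synthase COX-2 and was at 0.88 ± 0.39 against 2.25 ± 0.74 CPM (SD, n = 3 each).

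**Figure D5:**
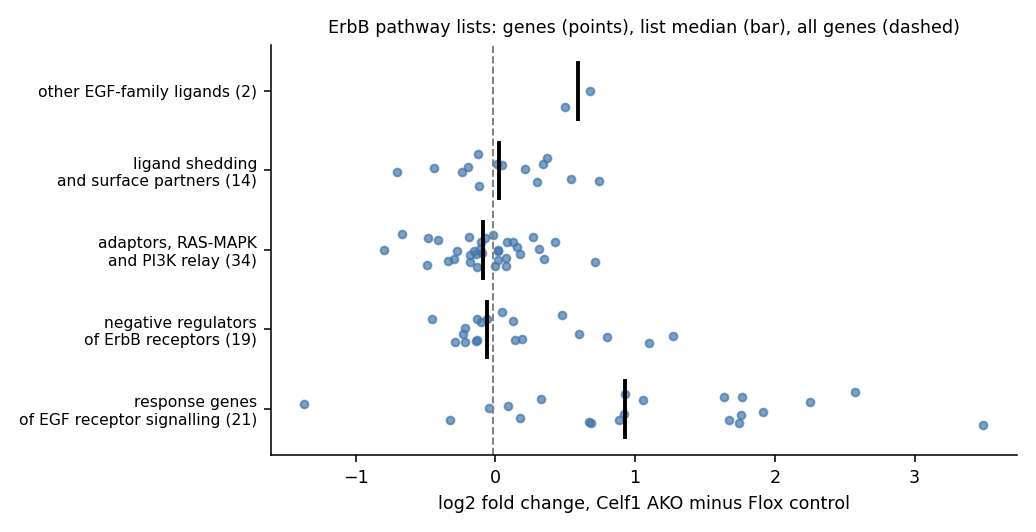
Log2 fold change, Celf1 AKO minus Flox control, of each tested gene of the 5 pathway lists (points, with the number of genes in brackets), the list median (black bar) and the median of all tested genes (dashed line). The response genes lie to the right with a median of 0.93, and the 3 lists of shedding, relay and negative regulation centre near 0.

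The markers of other cell types are given beside the members, and edgeR called 0 of them at an adjusted p of 0.05 (lowest 0.215). At an unadjusted p under 0.05 by edgeR there were 6 lower and 1 higher thermogenic, 6 higher endothelial and 8 higher Schwann cell markers. Of the other lists, 4 neutrophil and 2 epithelial markers were higher and 1 adipocyte marker was lower at that p. Of all genes, 6.75% were higher and 6.17% lower at that p. DESeq2 called 3 thermogenic, 3 endothelial and 5 Schwann cell markers, where 2.97% of all genes passed. The summed CPM of 9 thermogenic adipocyte markers, led by Ucp1 and Cidea, was 202 to 452 in Celf1 AKO and 889 to 966 in Flox control. Ucp1 alone made up 461 to 567 of the CPM in the controls and 4.86 to 79.6 in Celf1 AKO. Of the 9 markers, 6 were lower without overlap, where 9.51% of all genes were. Ppargc1a, a coactivator of the same list named after its values were seen, lay the other way, at 186, 80.4 and 74.7 CPM in knockout libraries 1, 2 and 3, against 79.3, 52.4 and 57.4 CPM in control libraries 1, 2 and 3 (log2 fold change 0.85, SE 0.36). That of 10 general adipocyte markers overlapped, at 37597 to 47769 against 43851 to 49120. That of 8 endothelial markers, led by Pecam1 and Kdr, was 1010 to 1163 in Celf1 AKO and 575 to 831 in Flox control. Of the 8 markers, 6 were higher without overlap, where 7.81% of all genes were. Pecam1 overlapped, with 212 CPM in knockout library 1 and 255 CPM in control library 2, and Tek, named after its values were seen, had a log2 fold change of -0.20 (SE 0.20). That of the 5 neutrophil markers was 15.6 to 108 against 3.20 to 15.4, with Ngp at 0 counts in Flox control replicates 2 and 3. The 6 mast cell markers summed to 30.6 to 79.5 against 56.5 to 115 CPM. The part of these cell types in the levels of Nrg4 and Hbegf was not tested.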

How the data were processed

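Bulk RNA of 6 iWAT libraries was measured. For each Ensembl gene the deposited table holds a raw read count and an FPKM value per library, both made by the authors. HISAT2, RSEM 1.3.1, GRCm38 and mm10 appear in the submitters' processing notes, with no role stated. No source used here states the annotation or the use of strand, and reads of overlapping genes on opposite strands cannot be told apart. Symbols came from GENCODE M21 (16528 identifiers matched, 99 did not) and positions from the same release.

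The counts were tested with edgeR 4.0.16 (R 4.3.3): TMM, the default filter (261 genes removed), robust quasi-likelihood, genotype as the only term, all 6 libraries, Benjamini-Hochberg adjustment over 16366 genes, threshold 0.05. The SE is the fold change over the root of F. The fit was tested on simulated data. At 1 CPM a gene rested on 54.9 to 67.8 counts per library, and counts give the counting error only. Alternatives were RLE and library-size scaling, 2 other filters, DESeq2 1.42.0, limma 3.58.1 (voom, and log2(FPKM + 1) or log2(FPKM + 0.1) with at least 1 FPKM in 3 libraries, the former also without this minimum), the replicate number as a block, and each library left out.

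The members and lists were chosen with earlier results of these data known, and the promoter and UTR searches were added after the values were seen. Named genes are the members, Celf1, the other measured EGF-family ligands, the 3 genes of smallest p of each other pathway list, the 4 genes most like Hbegf and Nrg4, and the 2 most abundant markers of each list, unless said otherwise.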

Additional observations from a re-analysis of the deposited data

How the results depend on the processing

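All 122 log2 fold changes of members under the alternatives kept their direction, and 115 moved by less than the spread between replicates. Of the 7 that moved further, 5 were on the log2(FPKM + 1) scale, which shrinks low genes (Hbegf 1.16). Tgfa, Erbb3 and Erbb4 fell below the minimum in 2 of the FPKM fits and have no value there. The number of members called was 0, but 2 with DESeq2 and 0 to 2 with 1 library left out, the 2 without Celf1 AKO replicate 3. The number of pathway genes called was 0, but 10 with DESeq2 and 0 to 9 with 1 library left out, the 9 without Celf1 AKO replicate 3. Over all genes it was 2, but 494 with DESeq2, 12 with the replicate block, 1 with limma on log2(FPKM + 1) without a filter, 0 with library size only, limma-voom and the 2 filtered FPKM fits, and 0 to 527 with 1 library left out, the 527 without Celf1 AKO replicate 3. The block called 0 members and 0 pathway genes. Deviations from the group means correlated at 0.071, -0.0084 and 0.27 between libraries numbered 1, 2 and 3, and Celf1 AKO replicate 2 correlated best with Flox control replicate 1 (0.30), so the numbers were not taken to pair the libraries. Depth limits the low end, where single libraries held 57 counts of Erbb4, 92 of Tgfa and 10 of Nrg2.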
